A study of Mus musculus with 6 samples.

Results

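A set of 10 genes of the smooth muscle contractile apparatus was followed in whole mouse duodenum: Acta2, Actg2, Myh11, Mylk, Tagln, Cnn1, Smtn, Lmod1, Des and Synpo2. They were taken by gene symbol from the deposited FPKM values (fragment counts scaled to transcript length and to library depth), where each of the 10 symbols matched 1 of 23699 gene models, and they serve as a guide to the muscle content of the dissected segment. The samples were 3 control mice of genotype Nkx2.2flox/+ and 3 mutant mice of genotype Nkx2.2flox/flox;Villin-Cre/+, all of mixed background and adults of 6 weeks, and mutant 3 also carried Rosa26Tomato/+. The controls carry 1 floxed allele and no Cre, so the Cre and the number of floxed alleles go together with the group. Villin-Cre acts in the intestinal epithelium, so muscle is not the tissue in which the allele is deleted. Total RNA came from the 2 cm of duodenum next to the stomach, and each library held 21.0 to 26.3 M fragments. The labels name no litter, day or sequencing run for the replicate numbers.

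The wall of the gut is wrapped in an inner circular and an outer longitudinal layer of smooth muscle, with a thin muscularis mucosae beneath the epithelium. In these cells a rise in calcium activates myosin light chain kinase, which phosphorylates the myosin light chain and lets smooth muscle myosin pull on actin filaments anchored at dense bodies. The genes of this apparatus share control by serum response factor and its partner myocardin. Serum response factor binds the CArG box, a short element with an A/T-rich core. In a bulk sample, fewer muscle cells and less RNA per muscle cell cannot be told apart.

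The 2 actins at the head of the set are close copies, so the sequence that separates them is shown first. Over their coding sequences Acta2 and Actg2 were 84.2% identical, and their longest identical run was 29 bases, shorter than the fitted read length of 101.01 bases. The 101 coding bases below are one read length long and were chosen as the aligned stretch of that length with the fewest differences. They start at coding base 886 of Acta2 and 883 of Actg2, in the NCBIM37 (mm9) reference, 5′ to 3′ on the coding strand. Capitals mark the 10 bases at which they differ.
Acta2: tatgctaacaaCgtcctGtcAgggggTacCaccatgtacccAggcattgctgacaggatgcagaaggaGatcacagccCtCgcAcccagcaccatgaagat
Actg2: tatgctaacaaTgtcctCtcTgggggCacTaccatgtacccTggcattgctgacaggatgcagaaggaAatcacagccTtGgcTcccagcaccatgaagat
Across the longest reference transcript of each of the 10 genes, 0% of the 101-base windows also occurred in a transcript of another protein-coding gene. Reads without errors from these transcripts could therefore be told from those of other protein-coding genes. Pseudogenes, the rest of the genome and near matches were not searched. How the authors treated reads with several matches is not given in the sources used here. Overlap on the other strand touched Tagln, whose exons share bases with Pcsk7, as well as Des with Gm15179 and Smtn with Gm11946 and Gm11947. Pcsk7 lay between 14.3 and 16.3 FPKM in the 6 libraries, and the strand setting of the counting is not stated.

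The set was first read beside striated muscle genes, which does not separate gut from vascular smooth muscle. Myh11, the smooth muscle myosin heavy chain and itself a member, reached at least 49.7 FPKM in every library. In contrast, the skeletal heavy chain Myh4 and the ventricular light chain Myl2 were listed at 0 in all 6, and Myh1 and Myh2 were at most 0.008. Other striated markers were present at low levels: Ckm, a muscle creatine kinase, lay between 5.27 and 8.28 FPKM, in the range of Lmod1 and Synpo2, Mylpf between 2.01 and 3.92, and the skeletal actin Acta1 between 1.56 and 6.01. All 10 genes passed the filter of 0.5 FPKM in at least 3 libraries. By reads rebuilt from the deposited coverage, the lowest value of a member was 525 reads, for Lmod1 in mutant 1. In control 2, for which most members had the lowest FPKM among the controls, they rested on 674 reads (Lmod1) to 10622 reads (Mylk). FPKM is scaled to the length of the deposited transcripts, so a rank between genes depends on those lengths as well. Ordered by mean FPKM over the 6 libraries, the set began with Acta2 at 161, Tagln at 136, Actg2 at 119 and Des at 112. Mylk at 67.1, Myh11 at 60.5 and Cnn1 at 51.4 came next, then Smtn at 15.8, Synpo2 at 7.65 and Lmod1 at 7.33. Neighbours kept this order in all 6 libraries for Des over Mylk, Myh11 over Cnn1, Cnn1 over Smtn and Smtn over Synpo2. Actg2 over Des held in 3 of 6 libraries and Synpo2 over Lmod1 in 4 of 6, so neither pair can be ranked, and Acta2 over Tagln, Tagln over Actg2 and Mylk over Myh11 each held in 5 of 6.

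**Figure D1:**
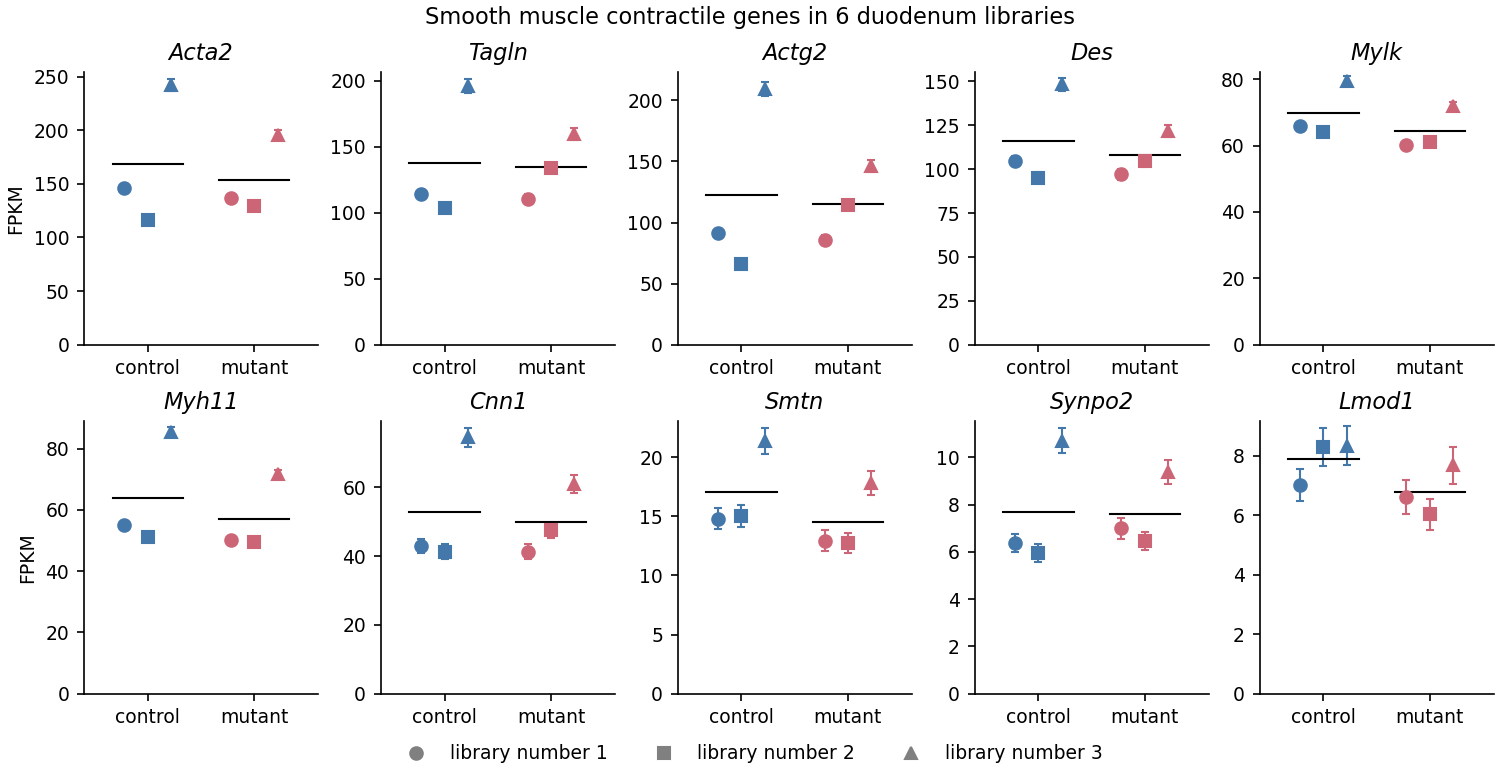
FPKM of the 10 contractile genes in each of the 3 control and 3 mutant libraries, with bars at the group means and libraries marked by replicate number. In every gene the library numbered 3 is the highest of its group, and the ranges of the groups overlap, as in Acta2 with 116 to 242 in controls and 129 to 195 in mutants.

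No contractile gene passed the test between mutant and control mice. The test was limma on log2(FPKM + 0.5) over 13596 genes, and 0 of the 10 passed an adjusted p of 0.05, against 3 genes (0.0221%) of all tested, 0.0147% being lower and 0.00736% higher in mutants. At an unadjusted p under 0.05 the members again numbered 0, against 3.43% of all genes, and all 10 had an adjusted p of 0.999. The ranges of the groups overlapped for all 10. Groups that did not overlap were uncommon among all genes too, at 7.75%, so the overlap does not set the members apart. The median log2 change of the members, mutant minus control, was -0.09, with 7 of 10 below 0, beside -0.02 for all genes, of which 55.8% were below 0.

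The actins form the thin filaments on which myosin pulls. Acta2, the alpha actin of smooth muscle (chr19:34315581-34329826, minus strand), stood at 146, 116 and 242 FPKM in controls 1 to 3, against 137, 129 and 195 in mutants 1 to 3. Its highest value in each group was in the library numbered 3, and the mutant range lay inside the control range. The change was -0.08 ± 0.29 (log2, SE), a fold of 0.943 with a 95% interval of 0.583 to 1.53. Actg2, the gamma actin typical of gut muscle (chr6:83462903-83486245, minus strand), stood at 91.5, 66.2 and 209 FPKM in controls, against 85.6, 115 and 146 in mutants. It spread the most of the 10, and control 2 and control 3 bounded all 3 mutants. Its change was 0.06 ± 0.45 (log2, SE), and the interval of the fold, 0.485 to 2.23, was the widest of the set. Acta2 made up 61.5, 63.7 and 53.6% of the summed FPKM of the 2 actins in controls and 61.5, 53.0 and 57.2% in mutants. The means of 59.6 ± 5.30% and 57.2 ± 4.26% (SD, n = 3 each) did not differ beyond their spread in an exact two-sided permutation test (p = 0.5, where the smallest possible is 0.1).

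Myosin and its kinase come next. Myh11 (chr16:14194620-14291501, minus strand) was measured at 55.1, 51.3 and 85.4 FPKM in controls, against 50.1, 49.7 and 71.6 in mutants. Mylk, the light chain kinase that switches myosin on (chr16:34785036-35002520, plus strand), was measured at 65.8, 64.1 and 79.6 FPKM in controls, against 60.2, 61.0 and 71.8 in mutants. Libraries 1 and 2 of both groups lay close together in both genes, and only the libraries numbered 3 stood above them. The Myh11 change was -0.14 ± 0.23 (log2, SE; fold 0.904, 95% interval 0.620 to 1.32). Mylk had one of the narrowest intervals, 0.749 to 1.14 around a fold of 0.923.

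Myh11 was deposited as 2 isoforms, of 6593 and 6632 bases, a difference of 39 bases. The longer isoform made up 50.6, 43.8 and 49.5% of Myh11 FPKM in controls and 52.0, 49.8 and 50.1% in mutants. Both isoforms were thus near equal in every library, and the share was lowest in control 2. Neither isoform passed the test (log2 changes of -0.22 for the shorter and -0.06 for the longer, adjusted p 0.999 by limma over 16213 isoforms, of which 0.00617% passed). Smtn rested on its isoform of 3336 bases, and its second isoform, of 3387 bases, reached 0.457 FPKM in mutant 1 (3.53% of the gene) and was at most 1.83e-05 in the other libraries. The other 8 genes were deposited with 1 isoform each. For Mylk that was a transcript of 7809 bases. The short telokin transcript, which comes from the end of the same gene, therefore has no value of its own here. Any reads of it that were counted would lie within the Mylk value.

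Transgelin, calponin and smoothelin bind actin filaments and mark differentiated, contractile smooth muscle. Tagln (chr9:45737711-45744141, minus strand) was measured at 114, 103 and 196 FPKM in controls, against 111, 134 and 159.5 in mutants. Cnn1, calponin 1, which restrains the myosin motor (chr9:21903697-21913665, plus strand), was measured at 43.0, 41.3 and 74.5 FPKM in controls, against 41.3, 47.5 and 60.9 in mutants. In both genes the mutant libraries filled the gap between control 2 and control 3. Their changes were 0.01 ± 0.26 and -0.05 ± 0.26 (log2, SE), with folds of 1.01 (95% interval 0.656 to 1.54) for Tagln and 0.967 (0.636 to 1.47) for Cnn1. Smtn (chr11:3417525-3439295, minus strand) was measured at 14.8, 15.0 and 21.4 FPKM in controls, against 12.95, 12.8 and 17.8 in mutants. Each mutant was below the control of the same number, and mutant 3 was above controls 1 and 2. Smtn had the lowest estimate of the set, a fold of 0.856 with an interval of 0.632 to 1.16.

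The remaining members nucleate actin or hold the contractile lattice together. Lmod1, leiomodin, which nucleates actin filaments (chr1:137221390-137264642, plus strand), was measured at 7.01, 8.29 and 8.35 FPKM in controls, against 6.61, 6.03 and 7.69 in mutants. It was the member whose control 3 stood out the least, and mutant 3 alone lay within the control range. Its change was -0.21 ± 0.13 (log2, SE; fold 0.867, 95% interval 0.701 to 1.07; unadjusted p = 0.156 by limma). Des, desmin, the intermediate filament of muscle (chr1:75356919-75364290, plus strand), was measured at 105, 95.2 and 148 FPKM in controls, against 97.2, 104 and 122 in mutants. Synpo2, a protein of Z-discs and dense bodies that binds actin and alpha-actinin (chr3:122779437-122939067, minus strand), was measured at 6.39, 5.95 and 10.7 FPKM in controls, against 7.001, 6.46 and 9.38 in mutants. For both, all 3 mutants lay between control 2 and control 3. Their folds were 0.942 (0.698 to 1.27) for Des and 1.01 (0.686 to 1.49) for Synpo2.

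**Figure D2:**
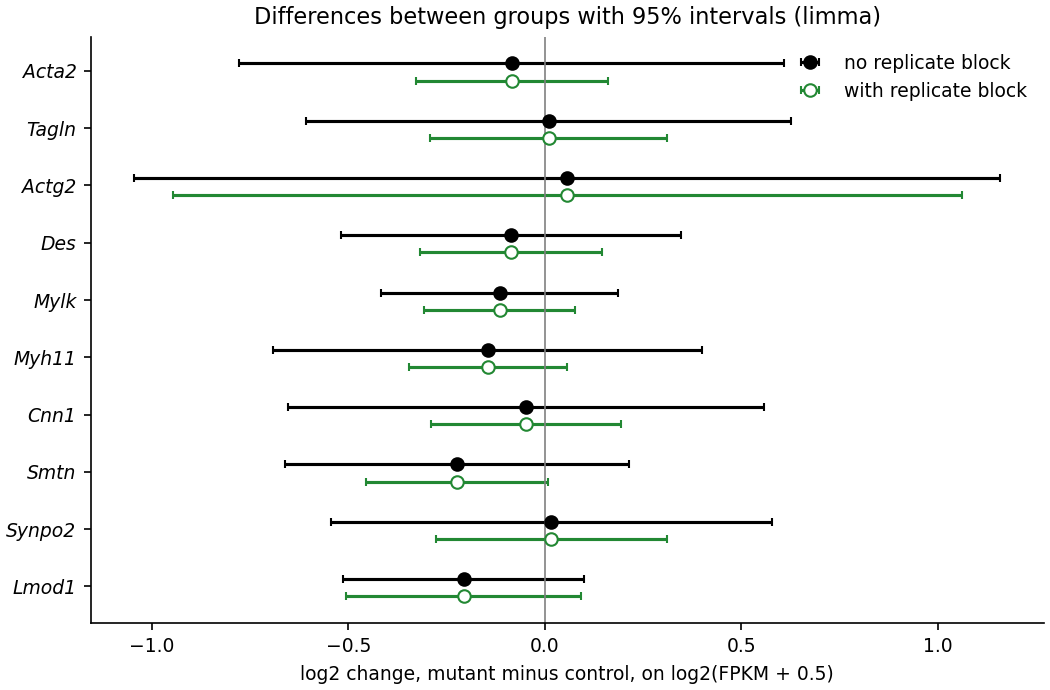
Log2 change of each contractile gene, mutant minus control, with 95% intervals from limma without (main) and with the replicate number as a block. Estimates run from -0.22 for Smtn to 0.06 for Actg2, every interval of the main test includes 0, and the intervals of the blocked test are narrower for most genes.

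The intervals narrowed when the replicate number was fitted as a block. The Acta2 interval went from -0.78 to 0.61 (log2) without the block to -0.33 to 0.16 with it, and that of Cnn1 from -0.65 to 0.56 to -0.29 to 0.19. For Actg2 it stayed wide, at -0.95 to 1.06. The blocked limma test called 22 of all genes (0.162%) and 0 of the 10 members, and the smallest unadjusted p of a member was 0.0567, for Smtn (adjusted p 0.746), while 6.76% of all genes had an unadjusted p under 0.05. On reads rebuilt from coverage, limma-voom called 0 genes, and an unadjusted p under 0.05 was reached by 0 members and 4.43% of all genes. The authors' deposited table called 26 of 18605 genes (0.140%) and listed an adjusted p of 1 for all 10 members, with folds from 0.861 to 1.01.

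The members varied together from library to library. In both groups the library numbered 3 was the highest for all 10 members, a pattern shared by 31.4% of all genes tested. The summed FPKM of the members was 648, 567 and 1076 in controls 1 to 3 and 608, 665 and 862 in mutants 1 to 3. As a share of all FPKM this was 0.0948, 0.0845 and 0.148% in controls and 0.0872, 0.0963 and 0.120% in mutants. Control 3 and mutant 3 thus both stood above the 4 other libraries, control 3 by more.

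The excess of each library numbered 3 over the mean of libraries 1 and 2 of its group was then taken on the log2 scale. It was 1.42 in controls and 0.56 in mutants for Actg2, 0.89 and 0.55 for Acta2, 0.85 and 0.39 for Tagln, and 0.82 and 0.45 for Cnn1. At the other end it was 0.29 and 0.24 for Mylk and 0.12 and 0.26 for Lmod1. The median of the members was 0.71 in controls and 0.45 in mutants, beside 0.03 and 0.13 for all genes. The order of the members was similar in both groups (Spearman 0.72 over 10 genes, as a description, since the genes share their libraries). Counting error differed in weight between members. The deposited 95% interval of Acta2 was 112 to 119.7 FPKM in control 2 and 237 to 247 in control 3. For Lmod1 the intervals nearly coincided, at 7.65 to 8.92 FPKM in control 2 and 7.70 to 8.99 in control 3. Lmod1 was thus highest in control 3 only within its counting error.

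**Figure D3:**
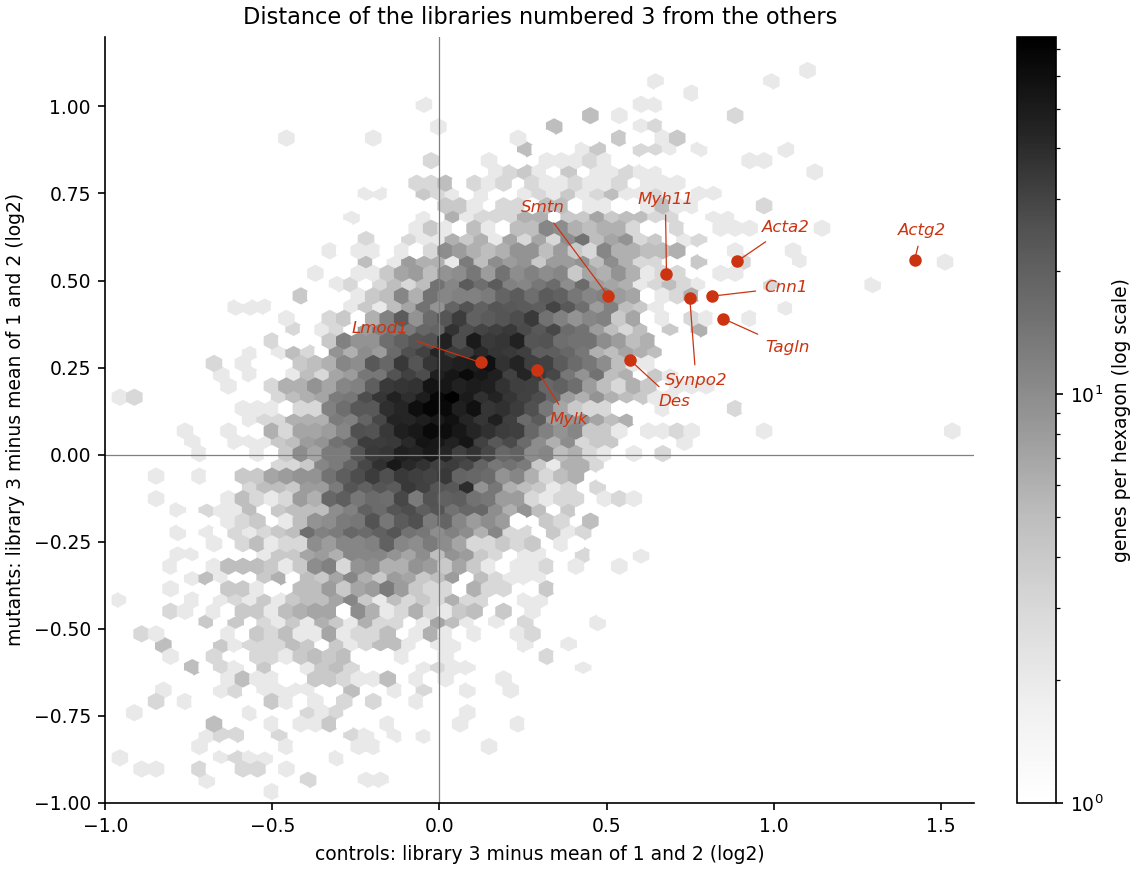
Log2 excess of the library numbered 3 over the mean of libraries 1 and 2, in controls (x axis) and in mutants (y axis), for the 10 contractile genes in red and for the other genes tested as grey hexagons shaded by count; 697 of 13596 genes lie outside the axes. All 10 contractile genes lie above 0 on both axes, with Actg2 farthest along the control axis at 1.42 and Lmod1 nearest to the origin.

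A moderated F test of the replicate number, in the limma fit with the block and chosen after the data were seen, passed for 3 of the 10 members, against 4.45% of all genes. These were Acta2 (adjusted p 0.0190), Myh11 (0.0202) and Cnn1 (0.0332). Smtn, Synpo2 and Tagln had adjusted p-values of 0.0829, 0.0836 and 0.0937, and Lmod1, at 0.751, had the highest. Because the samples were not chosen by number and the labels do not say what it marks, the number and any feature of dissection or handling cannot be told apart.

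The labels do not say that a shared number marks a pair, and a pair here means only libraries of the same number. By number, the mutant was lower than the control for 9 of 10 members in pair 1, with a median log2 difference of -0.10. It was lower for 4 of 10 in pair 2 (median 0.12) and for 10 of 10 in pair 3 (median -0.27). Pair 2 therefore ran the other way for most members. Leaving out both libraries numbered 3, an alternative chosen after the data were seen, gave a median log2 change of 0.02 and again 0 members past the threshold. Leaving out control 3 alone turned the median from -0.09 to 0.16.

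Genes outside the set that build or steer the same apparatus were counted from lists chosen with earlier results of these data known. Of 20 other thin filament, myosin and cytoskeletal genes, 0 passed the genotype test in either direction, with a median log2 change of -0.00. Tpm1, a tropomyosin that lies along actin, stood at 281, 262 and 390.0 FPKM in controls and 298, 296 and 351 in mutants. Myl6, the essential myosin light chain, stood at 615, 551 and 779 FPKM in controls and 661, 639.9 and 741 in mutants. In 17 of these 20 genes (85%) the library numbered 3 was highest in both groups, as in the members, against 31.4% of all genes. The replicate number test passed for Flna, Csrp1 and Pdlim3, which are named because they passed it, against 4.45% of all genes.

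Of 19 tested genes of contraction signalling, 0 passed the genotype test (median log2 change -0.11). The library numbered 3 was highest in both groups for 10 of them (52.6%), against 31.4% of all genes. Ppp1cb, the catalytic subunit of myosin phosphatase, was level at 79.8 to 89.3 FPKM in all 6 libraries. Rock2, a kinase that restrains the phosphatase, went the other way from the members, at 34.3, 42.3 and 21.3 FPKM in controls and 32.0, 39.8 and 24.0 in mutants. Both libraries numbered 3 were thus the lowest for Rock2 (adjusted p of the replicate number 0.0125 by limma). Of 12 tested transcription regulators of smooth muscle, 0 passed the genotype test. Of them 3 (25%) were highest in both libraries numbered 3, near the 31.4% of all genes. Gata6 and Klf4, the most abundant of them, are also made by the epithelium and stood at 32.6 to 43.3 and 97.8 to 156 FPKM. Myocd, the myocardin gene, was near the lower limit of measurement at 0.385 to 0.714 FPKM, and Srf lay between 12.6 and 15.6, both being named after their values were seen.

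Non-muscle actins, myosins and paralogues of the members, which most cell types make, were counted in the same way. Of 14 tested, 0 passed the genotype test and 4 (28.6%) were highest in both libraries numbered 3, near the 31.4% of all genes. Actb, the cytoplasmic beta actin, stood at 1400, 1302 and 1428 FPKM in controls and 1885, 1663 and 1435 in mutants. Actg1 stood at 789, 769 and 706 FPKM in controls and 980.3, 834 and 714 in mutants. The log2 changes were 0.26 and 0.15, with intervals of -0.13 to 0.65 and -0.23 to 0.53. Of the striated muscle list, 6 of 16 genes passed the filter, 0 passed the genotype test, and the sum of the whole list was 13.95 to 19.96 FPKM per library.

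Markers of other cells of the wall were read beside the members. The share of all genes that were highest in both libraries numbered 3 was 31.4%. Of 11 tested fibroblast and matrix genes, 9 were highest in both libraries numbered 3, with an excess of 0.67 in controls and 0.69 in mutants (median log2). Sparc, a matrix protein, stood at 91.9, 88.9 and 178 FPKM in controls and 87.7, 89.5 and 146 in mutants, so it was high in the same 2 libraries as the members. Dcn, the matrix proteoglycan decorin, lay between 49.7 and 101 FPKM. The replicate number test passed for 6 of the 11 matrix genes, beside 3 of the 10 contractile genes and 4.45% of all genes. The summed FPKM of 6 mesothelium and serosa markers was 2.93, 2.48 and 11.3 in controls and 3.04, 3.52 and 6.61 in mutants, and all 3 of those tested were highest in both libraries numbered 3. Among them Msln ran from 0.300 to 3.62 FPKM and Upk1b from 1.41 to 3.89. The count was 6 of 9 for pericyte and vascular muscle markers (Rgs5 at 32.6 to 50.6 FPKM, Mcam at 9.19 to 13.01) and 7 of 10 for endothelium (Plvap at 45.2 to 66.2, Emcn at 8.72 to 14.7). Interstitial cells of Cajal and related cells gave 2 of 7 (P2ry1 at 11.3 to 17.3 FPKM, Gja1 at 9.12 to 15.6). Enteric neurons and glia gave 3 of 10, and both counts were near the share of all genes.

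Markers of the remaining sources were summed likewise. In these sums, gene models that share a symbol entered once, by their mean. The summed FPKM of 12 epithelial genes was 8641, 8508 and 8089 in controls and 8754, 8815 and 8048 in mutants. That of 5 blood genes was 56.0, 80.5 and 294 in controls and 59.2, 139 and 161 in mutants, and Hba-a1, a globin with a pair of gene models, ran from 17.8 to 219 FPKM over both. That of 12 exocrine pancreas genes was 21766, 19929 and 13485 in controls and 13101, 8652 and 3033 in mutants, with Ctrb1 at 804 to 4879 and Cela2a at 433 to 3452. That of 8 Brunner gland and stomach genes was 2708, 8511 and 3113 in controls and 4807, 1096 and 142 in mutants, with Tff2 at 104 to 6296 and Gkn3 at 34.9 to 1624. On this list Gkn1, Gkn2 and Tff1 were high in control 2 alone, at 111, 207 and 136 FPKM. The other libraries held at most 0.792, 1.28 and 2.64 of them, while Tff2 and Gkn3 were not confined to control 2. Across these sums, both libraries numbered 3 were the lowest of their group for pancreas and epithelium. They were the highest for blood, mesothelium, matrix and muscle. Blood genes did not move one way: 3 of 7 tested gene models (42.9%) were highest in both, against 31.4% of all genes. Ptprc was lowest in both, at 8.85 FPKM in control 3 and 9.86 in mutant 3. Nor did epithelial genes move one way. Krt8 was lowest in both libraries numbered 3, at 1185 FPKM in control 3 and 1085 in mutant 3 against 1434 to 1501 in the other libraries. Lgals4 was highest in them, at 2013 and 1964 against 1623 to 1710.2. The part of any of these sources, or of where the 2 cm segment was cut, in the muscle values was not tested.

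**Figure D4:**
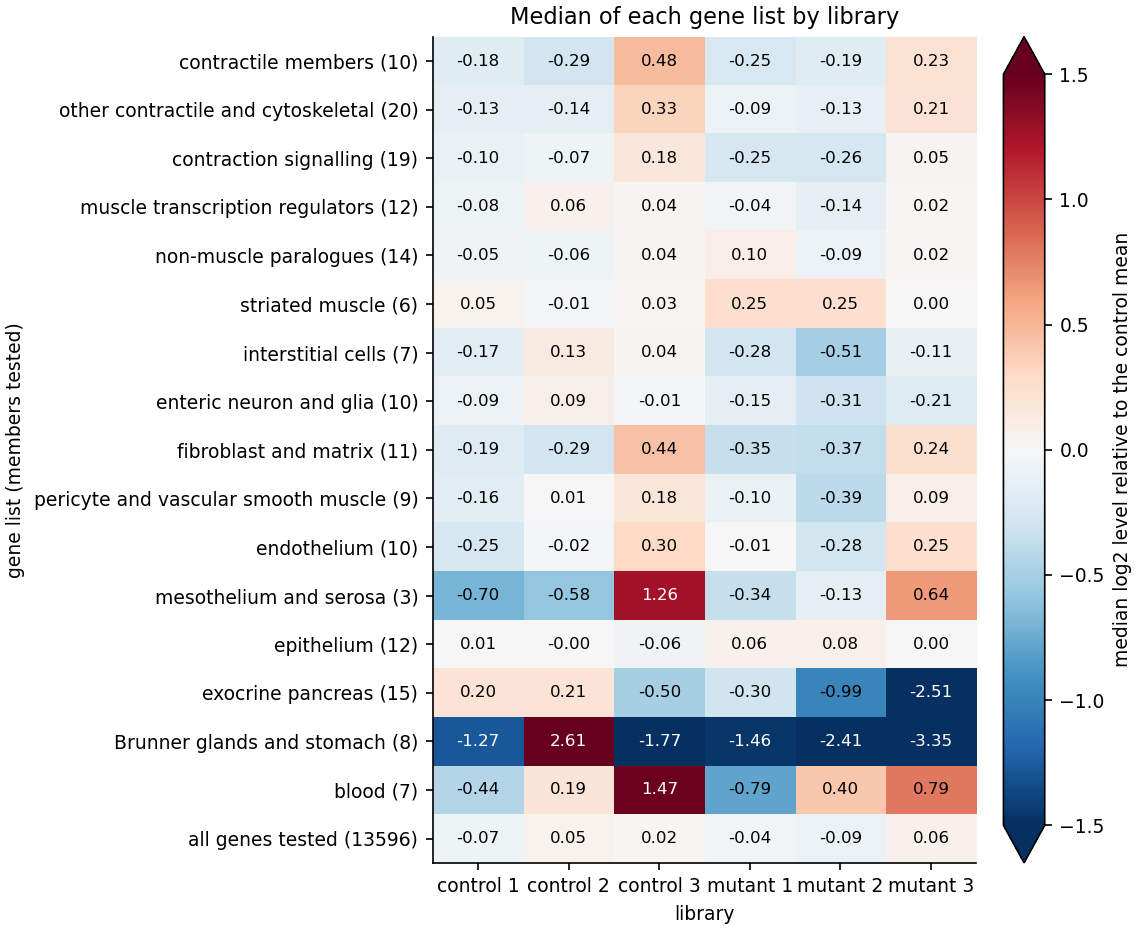
Median log2 FPKM of each gene list in each library, relative to the mean of the 3 controls, for the contractile genes and the 15 other lists. Contractile genes reach 0.48 in control 3 and 0.23 in mutant 3 and lie below 0 in the other libraries, matrix and mesothelium show the same order of signs, epithelium stays within 0.08 of 0, and pancreas is lowest in mutant 3.

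In these marker lists 0 genes passed the genotype test without the block with 1 exception, Tac1, the precursor of substance P, which enteric neurons and enterochromaffin cells make. Tac1 fell in the mutants, from 11.1, 10.8 and 11.3 FPKM in controls to 1.77, 1.07 and 2.55 in mutants (log2 change -2.38, adjusted p 0.0491 by limma, a call lost in 9 of the 19 alternatives). Its groups did not overlap, as in 7.75% of all genes. With the replicate block, Vip, another neuropeptide gene on the enteric neuron list, passed as well (17.4, 22.3 and 25.4 FPKM in controls, 11.7, 10.9 and 12.2 in mutants, adjusted p 0.0440 by limma), and it is named because it passed. The floxed gene itself, Nkx2-2, stood at 1.13, 1.32 and 0.779 FPKM in controls and 1.10, 0.736 and 0.221 in mutants, with groups that overlapped (log2 change -0.47, adjusted p 0.999 by limma). Its level over the whole gene model does not check the genotype, since the labels do not give the part that is removed.

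The genes whose levels over the 6 libraries were most like the mean of the members were ranked by Pearson's r, as a description that rests on both libraries numbered 3 standing apart. Of 2872 genes with a mean of at least 5 FPKM and an SD of at least 0.2 (log2), 234 (8.15%) had an r of at least 0.9, so a high r is common here. The closest were Serinc2 (r 0.991), Sparc (0.991), Csnk1g1 (0.985), Csrp1 (0.985), Rps29 (0.984), Fstl1 (0.982), Psma7 (0.982), Rpl24 (0.981), Efnb2 (0.980) and Pnp (0.979). Csrp1, a LIM protein of the cytoskeleton, and Sparc were on the lists above, and Rps29, Rpl24 and Psma7 encode ribosome and proteasome subunits made by all cells. The most opposed were Bin1 (-0.997), Plek2 (-0.994), Slc25a22 (-0.993), Isoc1 (-0.991) and Per2 (-0.987). Per2, a component of the circadian clock, stood at 14.3, 19.4 and 5.49 FPKM in controls and 15.0, 16.4 and 8.40 in mutants, so both libraries numbered 3 were its lowest.

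Transcript length moved with control 3, and much less with mutant 3. Over all genes tested, the excess of control 3 had a Spearman correlation of -0.25 with length, and that of mutant 3 one of -0.04. The median excess was 0.14 in control 3 over the third of genes that were shortest and -0.04 over the third that were longest, against 0.16 and 0.12 in mutant 3. The contractile genes are not all short: their lengths ran from 1315 bases (Actg2) to 7809 bases (Mylk, excess 0.29 in control 3). The 4 shortest members had the 4 largest excesses in control 3. These were Actg2 (1.42), Tagln (1586 bases, 0.85), Acta2 (1780 bases, 0.89) and Cnn1 (1987 bases, 0.82). Longer members reached at most 0.75, for Synpo2 of 7116 bases, and Lmod1, of 3942 bases, had the lowest, 0.12. In mutant 3 Actg2 (0.56) and Acta2 (0.55) were again highest. Myh11 (6632 bases, 0.52) followed there, while Tagln had 0.39. The part of length in the members' values was not tested.

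Since the members moved together over the libraries, their promoters are described by the element that the pathway is known for. RefSeq promoters (GRCm38.p6), from 250 bases before to 50 after the start of transcription, matched 7 of the 10 members, which leaves Actg2, Myh11 and Tagln without one. The CArG box was searched on both strands as CC, 6 letters of A or T, then GG, and the same with up to 1 C or G among the inner 6. The strict form occurred in 0 of the 7, and in 1.63% of 32851 promoters. The relaxed form occurred in 1 of the 7, Acta2, and in 9.98% of all promoters. The Acta2 promoter (chr19:34255324-34255623, minus strand) is printed because it holds 2 such matches, in capitals, 84 and 34 bases before the start.
Acta2: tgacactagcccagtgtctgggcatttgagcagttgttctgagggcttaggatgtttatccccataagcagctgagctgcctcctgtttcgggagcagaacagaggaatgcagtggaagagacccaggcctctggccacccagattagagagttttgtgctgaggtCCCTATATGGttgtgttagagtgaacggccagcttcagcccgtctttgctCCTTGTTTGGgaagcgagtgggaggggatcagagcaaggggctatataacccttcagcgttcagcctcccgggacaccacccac
A match of letters is no measurement of binding, and a window of 300 bases says nothing about elements in introns or farther upstream.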

How the data were processed

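RNA of the 2 cm of duodenum next to the stomach from 3 control and 3 mutant mice was sequenced with a TruSeq RNA kit, per the labels. The tools listed in the submitters' processing notes are CASAVA 1.8.2, TopHat, Cufflinks and DESeq, beside mm9, with no options, strand or role. The authors deposited FPKM per gene and per isoform, with a coverage signal for isoforms, per the file headers. The authors' deposited DESeq table gives group means of normalized counts (a signal), their ratio (the fold change), the log2 of it, and each gene's p-value before and after adjustment.

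Depth came from the constant ratio of FPKM to coverage. Reads were rebuilt from it, and of 15033 values of at most 20 reads, 93.7% came within 0.1 of whole numbers. The labels name no litter or culture beyond the mouse, so p-values measure only the spread between these samples. The main test ran on log2(FPKM + 0.5) of the 13596 of 23699 genes with at least 0.5 FPKM in at least 3 libraries. It was limma 3.58.1 in R 4.3.3 (lmFit, then eBayes, trend and robust on, with statmod 1.5.0). It was two-sided, p-values were adjusted by Benjamini-Hochberg over all genes tested, and the threshold was 0.05. Fold changes on that scale understate those of low genes. Isoforms were tested likewise, and limma-voom on rebuilt reads (at least 10 in at least 3 libraries) was an alternative. Samples of the same number deviated together (r of 0.26, 0.25 and 0.58 for numbers 1, 2 and 3 over all genes, each above 0.1), which was taken as pairing by number. However, control 1 with mutant 2 gave 0.30 and control 2 with mutant 1 gave 0.19. Deviations were taken from group means of 3 libraries, so a library that stands apart in both groups raises the r among the others. These values therefore do not show that libraries numbered 1 or 2 are pairs. In data simulated for this comparison, with 200 of 13596 genes changed in 20 runs, 7.09% of changes of 0.5, 74.9% of changes of 1 and 95.1% of changes of 2 (log2) were recovered, 6.7% of calls were false and 95.5% of intervals held the true value. The simulated noise was independent between genes and libraries, with no shared shift of the libraries numbered 3. These rates therefore describe the fit under that noise and may not hold in these data.

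Named were all members, up to 4 genes past the threshold of each other list or else the 2 of highest FPKM, the 10 genes most like the members and the 5 most opposed. Genes outside this rule (Nkx2-2, Pcsk7, Vip, Myocd, Srf, Flna, Csrp1, Pdlim3, Ptprc, Gkn1, Gkn2, Tff1 and the striated markers other than Ckm and Mylpf) were named after their values were seen. List counts and medians are over gene models, so a symbol with several models counts more than once. The members and lists were chosen with earlier results of these data known. Foxf1 had no match. Alternatives were other pseudocounts, filters and scalings, library quality weights, the replicate block, rebuilt reads and each library left out. Promoters came from RefSeq and coding sequences from GENCODE M1 on NCBIM37. The promoter build differs from mm9, so its positions are not those of the other coordinates.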

Additional observations from a re-analysis of the deposited data

How the results depend on the processing

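Over the 19 alternatives tried, 0 of the 10 members passed the threshold in each, and the lowest adjusted p of a member was 0.408, for Smtn with library quality weights. The members' median log2 change of -0.09 ran from -0.21 to 0.16 when 1 library was left out. For 7 of the 10 members the direction turned in at least 1 alternative, and for Mylk, Lmod1 and Smtn in none. Tagln and Synpo2 turned under TPM and epithelium scaling, and Tagln also under quantile normalization. The count of all genes past the threshold, 3, was 1 with no filter, 1 with upper quartile scaling, 0 with limma-voom on rebuilt reads (648 at an unadjusted p under 0.05), 19 with library quality weights, 22 with the replicate block and 200 without both libraries numbered 3; leaving out 1 library gave 2 to 68, the highest without mutant 3. The count of isoforms, 1, was 4 with no filter, 2 with library quality weights, 5 with no trend or robust prior and 3 with the replicate block, and 1 to 20 when 1 library was left out. The cause was not tested. The block changed no member's call. Tac1 no longer passed in 9 alternatives. The share of the telokin-type isoform of Mylk was planned and could not be computed.

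With 3 mice a group, the 95% intervals of Acta2 and Actg2 reach folds of 0.583 and 0.485, while the narrowest, of Mylk and Lmod1, reach 0.749 and 0.701.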
